A study of Bos taurus with 2 samples.

Results

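The mir-181 family of microRNAs (miRNAs) was described in small RNA libraries of the bovine mammary gland. Its members were taken by name, as the entries called mir-181a, mir-181b, mir-181c and mir-181d in the list of known bovine miRNAs. That choice used no measured value, although it was made with earlier results of these data known. It gave 4 mature miRNAs, all of the 5p arm, of 283 known miRNAs and 884 unique miRNAs listed. The rule asked for both arms, and no 3p entry of these names was found in the known list.

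A total of 2 libraries was analysed, both from the mammary gland of Holstein dairy cows that had calved more than once. The lactation library came from 1 cow of 6 years that had been in milk for 2 months. The non-lactation library came from 1 cow of 4 years that was neither lactating nor pregnant. With 1 library for each condition, the effects of lactation, age and the individual cow cannot be told apart, and no difference has a replicate check. Intervals at 95% confidence cover counting error only, and they treat each read as independent. Reads copied by PCR are not independent molecules, so the intervals can be too narrow even for counting error. A test on reads compares these 2 libraries and not the conditions.

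A miRNA is cut from 1 arm, 5p or 3p, of a hairpin-shaped precursor and guides a silencing complex to mRNAs that pair with its seed, which is bases 2 to 8 counted from the 5′ end. MiRNAs with the same seed form a family, since they can pair with much the same mRNAs. The mir-181 family is best known from lymphocytes, where mir-181a tunes T cell receptor signalling and marks stages of lymphocyte development. Its members are also studied in blood vessels, where mir-181b dampens inflammatory signalling, and in epithelial cells exposed to transforming growth factor beta. In mammals the genes lie in clusters that each hold a pair of hairpins, so that the members of a pair can be cut from the same transcript.

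The mature sequences are shown since the members share the seed, given in capitals, and differ only after it.
mir-181a-5p: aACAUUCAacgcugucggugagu
mir-181b-5p: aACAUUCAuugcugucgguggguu
mir-181c-5p: aACAUUCAaccugucggugaguu
mir-181d-5p: aACAUUCAuuguugucgguggguu
Positions are counted from 1 at the 5′ end. mir-181b differed from mir-181a by A9U, C10U and A21G, and it was 1 base longer. mir-181d differed from mir-181b by C12U alone. mir-181c had no substitution against mir-181a, but it lacked the G that mir-181a carries at position 11 and ended in a further U. mir-181a and mir-181c were 23 nt long, and mir-181b and mir-181d were 24 nt long. Levels are therefore compared as reads, without a correction for length.

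The members were listed as 2 pairs on the BTA 4.0 bovine genome. The hairpin of mir-181a was at chr11:99136761-99136870 on the plus strand, and that of mir-181b at chr11:99137976-99138064, 1105 bases further along the same strand. mir-181c was at chr7:10020276-10020372 and mir-181d at chr7:10020094-10020206, both on the minus strand with 69 bases between them. In RefSeq, on the later assembly ARS-UCD2.0, the chromosome 11 genes are MIR181A-2 and MIR181B-2, which overlap the nuclear receptor gene NR6A1. The chromosome 7 genes, MIR181C and MIR181D, overlap the span annotated for NANOS3, a gene of germ cell development. RefSeq also holds another pair on chromosome 16, MIR181A-1 and MIR181B-1, which overlaps no protein-coding gene and has the leukocyte phosphatase gene PTPRC among its nearest neighbours. Hairpins with the mature 5p sequences of mir-181a and mir-181b were listed on chromosome 16 too, as described further on, so that reads of these 2 members cannot be divided between chromosomes 11 and 16.

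All 4 members had a lower level in the lactation library, given as RPM, the reads for each 1000000 clean reads of the library. By the count of the main sequence, which is the sequence listed for the miRNA as its most abundant and need not be so in each library, mir-181c and mir-181d were 4.87-fold and 5.52-fold lower. mir-181a and mir-181b were less than 2-fold lower. When the reads of all isomiRs were counted, which are the length and sequence variants of a miRNA including the main one, mir-181c moved to a ratio close to that of mir-181a. mir-181d did not move in this way. mir-181c differs from mir-181a by 1 inner base, and how isomiR reads were assigned between such similar members was not tested. Bulk tissue was sequenced, so fewer cells of a type and less RNA per cell cannot be told apart.

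mir-181a carried most of the reads of the family. Its main sequence was read 14030 times in lactation and 29294 times in non-lactation, that is 1173 and 1835 RPM. It ranked 34 among the 283 known miRNAs in lactation and 26 in non-lactation. mir-181a thus stood far above the other members in both libraries.

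The main sequence of mir-181b, listed beside mir-181a, had 909 reads in lactation and 1752 in non-lactation, or 76.0 and 109.7 RPM. Its rank was 89 and 75. The level of mir-181b was thus within the upper part of the list in both libraries.

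The chromosome 7 members were scarce. mir-181d had 128 main sequence reads in lactation and 943 in non-lactation, equal to 10.7 and 59.1 RPM, and its rank went from 145 in lactation to 89 in non-lactation. mir-181c had 30 and 195 reads, equal to 2.51 and 12.2 RPM, with ranks 190 and 129. The order of main sequence levels was the same in both libraries: mir-181a, mir-181b, mir-181d and then mir-181c.

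IsomiR counts gave the same order. All isomiRs of mir-181a summed to 60694 reads in lactation and 122535 in non-lactation (5073 and 7674 RPM). Those of mir-181b came to 5967 and 10852 reads (499 and 679.6 RPM). The sums were 371 and 2377 reads for mir-181d (31.0 and 149 RPM), and 229 and 509 reads for mir-181c (19.1 and 31.9 RPM). The distance between mir-181d and mir-181c was much smaller in lactation than in non-lactation on this count. Whether neighbours in the order differ beyond the spread between cows cannot be said with 1 library for each condition.

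**Figure D1:**
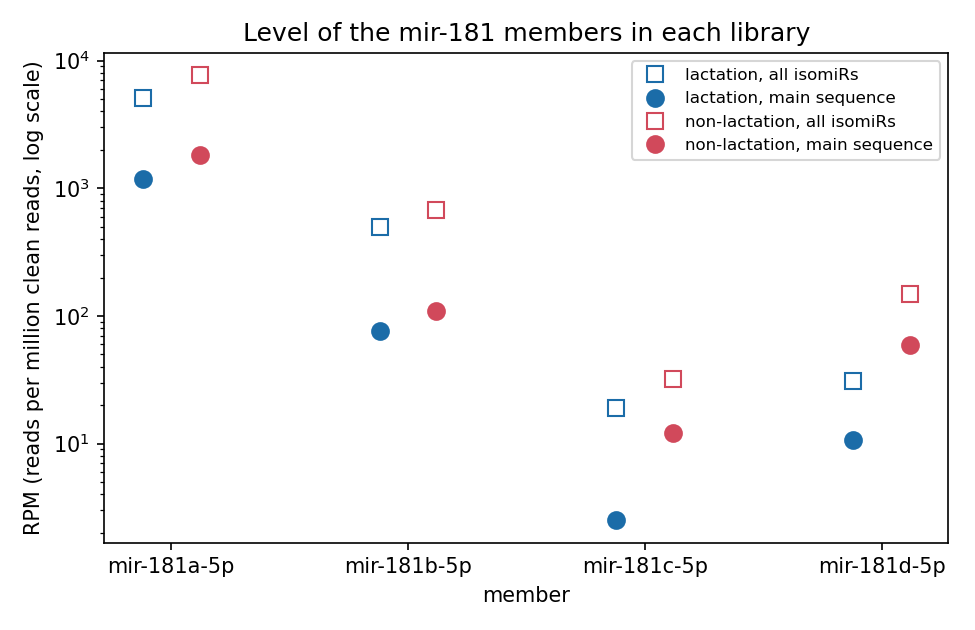
RPM (reads for each 1000000 clean reads, log scale) of each mir-181 member in the lactation library (blue) and the non-lactation library (red), with filled circles for the main sequence and open squares for all isomiRs. In each member both symbols are lower in lactation, and the gap between the libraries is widest for mir-181d and for the main sequence of mir-181c.

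The ratio of RPM, lactation over non-lactation, separated the main sequences of mir-181a and mir-181b from those of mir-181c and mir-181d. The ratio of mir-181a was 0.639 (95% exact interval 0.626 to 0.652), or 1.56-fold lower in lactation. The ratio of mir-181b was 0.692 (0.638 to 0.751), or 1.44-fold lower. Against these values, mir-181c had a ratio of 0.205 (0.135 to 0.303), which is 4.87-fold lower, and mir-181d a ratio of 0.181 (0.149 to 0.218), which is 5.52-fold lower. The intervals of mir-181c and mir-181d did not overlap those of mir-181a and mir-181b. The ratio of the summed main sequence reads was 0.642 (0.630 to 0.655) for mir-181a with mir-181b, over all their hairpins, and 0.185 (0.156 to 0.219) for mir-181c with mir-181d.

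A miRNA was called lower when its RPM was at least 2-fold lower in lactation and its reads summed to at least 100. On the main sequence, 2 of the 4 members, mir-181c and mir-181d, were called lower, whereas 62 of all 273 miRNAs with enough reads (22.7%) were called. At least 4-fold lower were the same 2 members and 16 of the 273 miRNAs (5.86%). These 273 miRNAs had a median log2 ratio of 0.24, above 0. Relative to that median, the log2 ratio was -0.88 for mir-181a, -0.77 for mir-181b, -2.52 for mir-181c and -2.70 for mir-181d. All 4 members therefore lay below the median miRNA.

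Counted over all isomiRs, the ratio was 0.661 (0.655 to 0.668) for mir-181a and 0.734 (0.711 to 0.757) for mir-181b, near their main sequence ratios. For mir-181d it was 0.208 (0.186 to 0.232), or 4.80-fold lower. For mir-181c it was 0.600 (0.511 to 0.703), with an interval wholly above that of its main sequence ratio. Of the members, 1 of 4, mir-181d, was called lower on this count, beside 38 of 205 known miRNAs (18.5%). The call on mir-181c thus held for the main sequence and not for all isomiRs.

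Leaving the main sequence out of the isomiR sum widened the gap within the chromosome 7 pair. The remaining isomiR reads of mir-181c were 199 in lactation and 314 in non-lactation, with a ratio of 0.846 and an interval that reached 1 (0.705 to 1.01). Those of mir-181d were 243 and 1434 reads, with a ratio of 0.226 (0.197 to 0.259). A lower level in lactation of the mir-181c variants other than the main sequence was therefore not detectable at this depth.

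**Figure D2:**
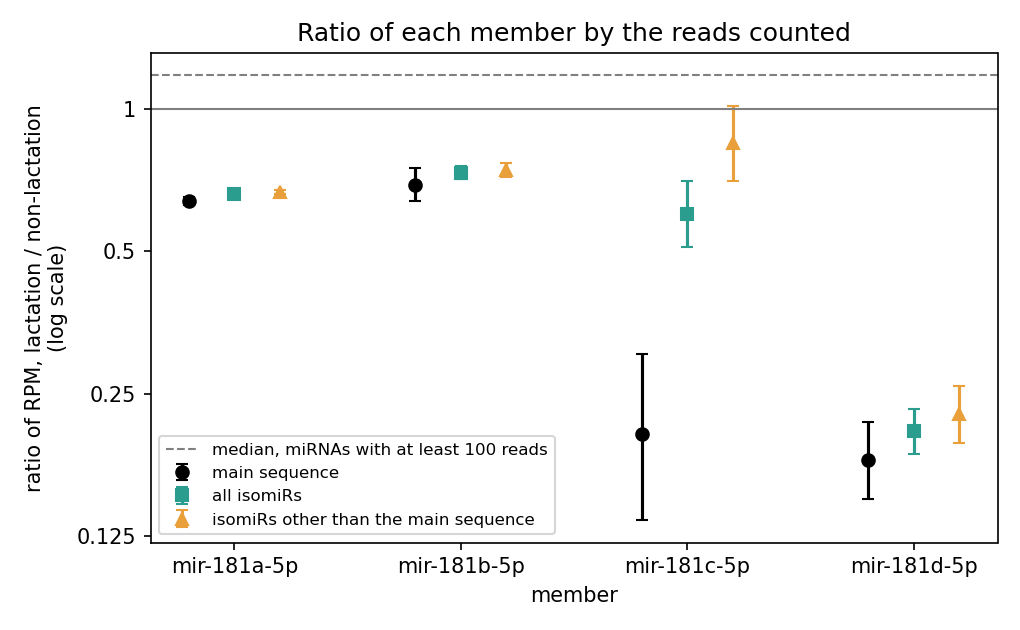
Ratio of RPM, lactation over non-lactation (log scale), of each member for the main sequence (black circles), all isomiRs (green squares) and isomiRs other than the main sequence (orange triangles), with bars for 95% exact intervals of counting error. The dashed line is the median of the 273 miRNAs with at least 100 main sequence reads. mir-181c goes from 0.205 to 0.846 with the reads counted, while mir-181a goes from 0.639 to 0.668, mir-181b from 0.692 to 0.742 and mir-181d from 0.181 to 0.226.

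Members were also compared with each other inside each library, which needs no scaling between libraries. An odds ratio of 1 means that the reads of a pair stood in the same proportion in both libraries. Over the 6 pairs of members and both counts, 12 comparisons were made with a two-sided Fisher's exact test and Benjamini-Hochberg adjustment. mir-181a had 15.4 main sequence reads for each read of mir-181b in lactation and 16.7 in non-lactation, an odds ratio of 0.923 (0.849 to 1.00; Fisher's exact test, adjusted p = 0.0727). The interval allows at most a small change in the proportion of mir-181a to mir-181b, each summed over its hairpins.

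The proportion of mir-181a or mir-181b to mir-181c or mir-181d moved far more. For each main sequence read of mir-181d there were 109.6 reads of mir-181a in lactation and 31.1 in non-lactation (odds ratio 3.53, 2.93 to 4.28; Fisher's exact test, adjusted p = 9.39e-53). For mir-181b against mir-181d the odds ratio was 3.82 (3.12 to 4.71; Fisher's exact test, adjusted p = 1.04e-46). For mir-181a against mir-181c it was 3.11 (2.11 to 4.74; Fisher's exact test, adjusted p = 1.11e-10), and for mir-181b against mir-181c it was 3.37 (2.27 to 5.17; Fisher's exact test, adjusted p = 2.37e-11). Between mir-181c and mir-181d, the chromosome 7 neighbours, the odds ratio was 1.13 (0.713 to 1.76; Fisher's exact test, adjusted p = 0.575). That interval leaves room for a change of either sign, so a like response of the pair is not shown.

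With all isomiRs counted, the pattern was that of mir-181d against the other 3 members. The odds ratio was 3.17 (2.84 to 3.55) for mir-181a against mir-181d, 3.52 (3.14 to 3.96) for mir-181b against mir-181d and 2.88 (2.37 to 3.50) for mir-181c against mir-181d. The adjusted p of the last was 8.26e-26 (Fisher's exact test). For mir-181a against mir-181c it was 1.10 (0.940 to 1.29; Fisher's exact test, adjusted p = 0.262). The smaller differences were those of mir-181a against mir-181b, 0.901 (0.871 to 0.931; Fisher's exact test, adjusted p = 1.07e-09), and of mir-181b against mir-181c, 1.22 (1.04 to 1.44; Fisher's exact test, adjusted p = 0.0176).

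The family as a whole took a small part of the known miRNA reads. Its main sequences held 0.268% of the known main sequence reads in lactation (0.264 to 0.272) and 0.420% in non-lactation (0.416 to 0.425). Since mir-181a held 92.9% of the family's main sequence reads in lactation and 91.0% in non-lactation, the ratio of the summed family, 0.626 (0.614 to 0.638), was near that of mir-181a. mir-181b held 6.02% and 5.44%. The share of mir-181d went from 0.848% in lactation to 2.93% in non-lactation, and that of mir-181c from 0.199% to 0.606%. Most reads with the seed of the family were thus those of mir-181a in both libraries.

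How the reads of a member were spread over its isomiRs was described by the share of the main sequence. Over 176 known miRNAs with at least 100 isomiR reads in each library, the median share was 45.0% in lactation and 45.2% in non-lactation. All 4 members were below these medians in both libraries. The main sequence of mir-181a made up 23.1% of its isomiR reads in lactation (22.8 to 23.5) and 23.9% in non-lactation (23.7 to 24.1). For mir-181b it made up 15.2% (14.3 to 16.2) and 16.1% (15.5 to 16.9). Of the 176 miRNAs, only 4 in lactation and 3 in non-lactation had a lower share than mir-181b.

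mir-181c was the member whose share differed most between the libraries. Its main sequence made up 13.1% of its isomiR reads in lactation (9.02 to 18.2) and 38.3% in non-lactation (34.1 to 42.7). The odds of the main sequence were 4.11-fold lower in lactation (odds ratio 0.243, 0.154 to 0.375; Fisher's exact test, p = 2.90e-12 adjusted over 4 members). For mir-181d the share was 34.5% (29.7 to 39.6) and 39.7% (37.7 to 41.7), an odds ratio of 0.801 (0.632 to 1.01; Fisher's exact test, adjusted p = 0.0788). The odds ratio was 0.957 (0.935 to 0.979; Fisher's exact test, adjusted p = 0.000354) for mir-181a and 0.933 (0.854 to 1.02; Fisher's exact test, adjusted p = 0.122) for mir-181b.

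Odds of the main sequence at least 2-fold lower in lactation were found for 1 of 4 members, mir-181c, and for 8 of the 176 known miRNAs (4.55%). Of these 8, mir-376d-3p alone had a smaller odds ratio than mir-181c, 0.0692 on 173 and 102 isomiR reads. mir-376d-3p was singled out after its values were seen. Shifts to higher odds in lactation were not counted here. Such shifts occurred too: the share of mir-339b-5p, also picked by its values, was 56.2% in lactation and 22.5% in non-lactation. Reads of single isomiRs were not analysed here, so which variants of mir-181c filled the remainder in lactation is not given. Whether variants of the far more abundant mir-181a were counted among them was not tested either.

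**Figure D3:**
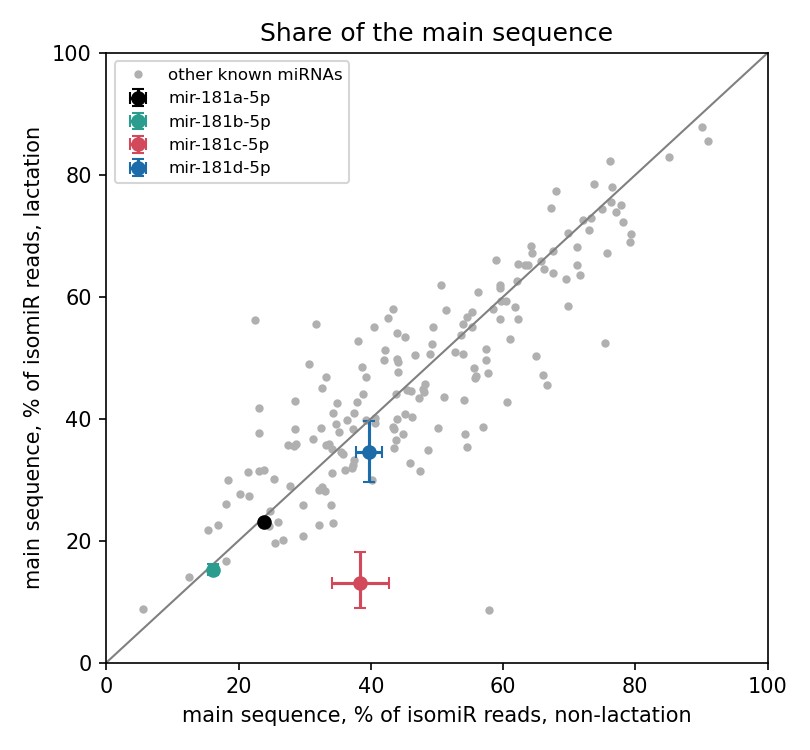
Share of the main sequence in the isomiR reads of each miRNA, non-lactation on the horizontal axis and lactation on the vertical axis (both %), for the 4 members (coloured, bars are 95% exact intervals) and the other known miRNAs with at least 100 isomiR reads in each library (grey). The line marks equal shares. mir-181c lies well under it at 38.3% and 13.1%, and mir-181a and mir-181b lie near it at low shares.

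The number of isomiR kinds, that is, of different variant sequences, was listed beside the reads. mir-181a had 255 kinds in lactation and 261 in non-lactation. Among known miRNAs with isomiR reads within 1.5-fold of its own, the median was 215 kinds over 15 miRNAs in lactation, of which 2 had more kinds than mir-181a. In non-lactation it was 179 kinds over 9 miRNAs, of which 0 had more. Each kind of mir-181a had on average 238 reads in lactation and 469 in non-lactation, so the kinds were close in number where the reads were not.

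mir-181b had 58 and 55 kinds, beside medians of 54 and 46 for miRNAs of like read number. mir-181c had 16 kinds in lactation, where the median of 34 like miRNAs was 8, and 22 in non-lactation, where the median of 25 was 12. mir-181d had 18 kinds against a median of 8.5 in lactation and 25 against 23 in non-lactation. Kinds were thus above the median of like miRNAs for every member in both libraries. For mir-181b, 6 of 19 like miRNAs in lactation and 4 of 13 in non-lactation still had more kinds. For mir-181d in non-lactation, 6 of 21 had more. These values are a description, since the number of kinds rises with depth.

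**Figure D4:**
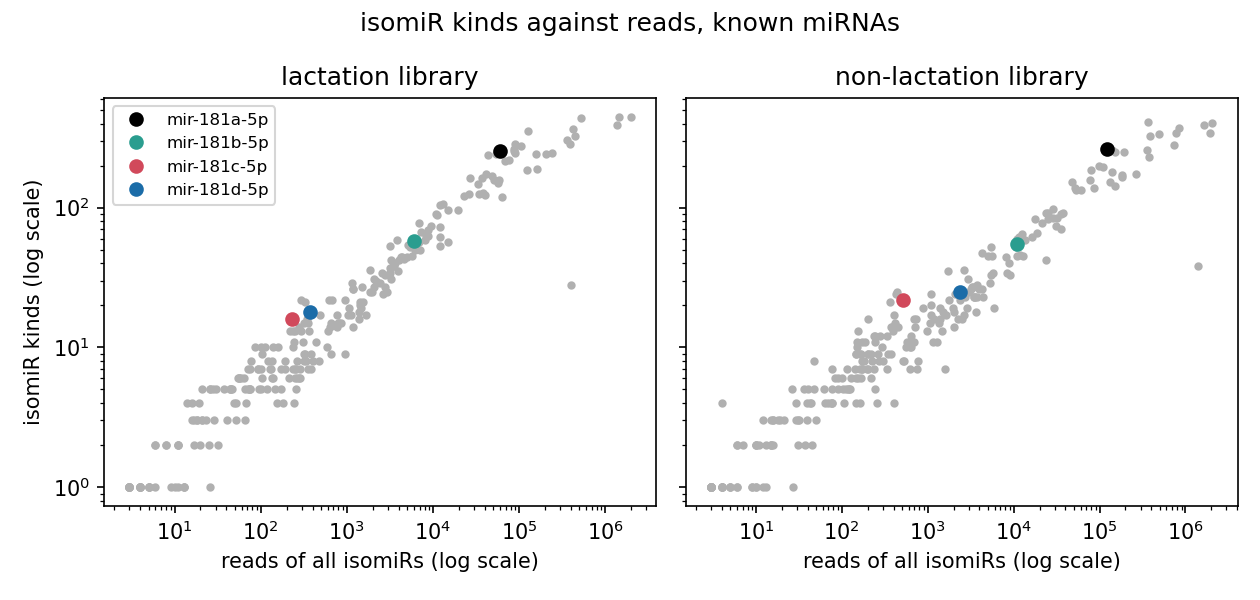
Number of isomiR kinds against the reads of all isomiRs (both log scales) for known miRNAs (grey) and the mir-181 members (coloured) in the lactation library (left) and the non-lactation library (right). mir-181a, at 255 and 261 kinds, and mir-181c lie at the upper side of the band of known miRNAs. mir-181b lies nearer its middle, as does mir-181d in non-lactation.

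The other arms were then sought among the miRNAs that the study listed as bovine candidates, which carry the names CN and a number. A total of 4 CN hairpins held a mature sequence of a mir-181 member on the 5p arm and listed a 3p miRNA. Of these, 2 contained mir-181a. They are shown since they carry the same 5p miRNA and different 3p miRNAs (both arms in capitals), CN-446 at chr11:99136761-99136870 on the plus strand and CN-403 at chr16:76125598-76125707 on the minus strand of BTA 4.0.
CN-446 hairpin: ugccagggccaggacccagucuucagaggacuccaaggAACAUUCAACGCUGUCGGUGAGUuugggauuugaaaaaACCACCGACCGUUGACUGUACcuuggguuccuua
CN-403 hairpin: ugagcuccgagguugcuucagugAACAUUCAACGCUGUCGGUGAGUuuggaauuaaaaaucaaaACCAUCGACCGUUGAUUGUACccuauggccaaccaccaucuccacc
Reads of mir-181a-5p match both hairpins, although the known list places mir-181a on chromosome 11. The position of CN-446 was identical to that of the known mir-181a hairpin.

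The 3p miRNAs do mark a hairpin. They are shown with the seed in capitals, since these arms carry 3 different seeds and the 5p members carry 1.
CN-446-3p: aCCACCGAccguugacuguac
CN-403-3p: aCCAUCGAccguugauuguac
CN-88-3p: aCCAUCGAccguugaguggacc
CN-402-3p: cUCACUGAacaaugagugcaa
CN-446-3p differed from CN-403-3p by U5C and U16C, of which the first lies in the seed. CN-88-3p, from the chromosome 7 hairpin of mir-181c, had U16G and U19G against CN-403-3p and the same seed. CN-402-3p came from a second chromosome 16 hairpin, at chr16:76125426-76125535 on the minus strand, that holds the 5p sequence of mir-181b and lies 62 bases from CN-403. No CN hairpin was found to hold mir-181d.

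The 3p miRNAs were rare beside the 5p members, and the summed 3p arms of mir-181a had a higher ratio than mir-181a-5p. CN-446-3p had 53 main sequence reads in lactation and 69 in non-lactation, a ratio of 1.03 (0.703 to 1.49). CN-403-3p had 24 and 44 reads, a ratio of 0.728 (0.423 to 1.22), whose interval includes the ratio of mir-181a-5p. Summed over isomiRs, the 3p arms of mir-181a had 249 and 304 reads and a ratio of 1.09 (0.921 to 1.30). The interval for mir-181a-5p, 0.655 to 0.668 on isomiRs, lay wholly below that interval.

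Reads of mir-181a-5p were counted for each read of its 3p arms. These comparisons were among 14 made between arms, over the members and both counts, some of them between 3p arms. There were 182 main sequence reads of mir-181a-5p for each summed 3p read in lactation and 259 in non-lactation (odds ratio 0.703, 0.521 to 0.952; Fisher's exact test, adjusted p = 0.0274). Against CN-403-3p alone, the main sequence odds ratio was 0.878 (0.522 to 1.51; Fisher's exact test, adjusted p = 0.652), so a difference between these arms was not detectable on this count. On isomiRs there were 244 and 403 reads for each summed 3p read (odds ratio 0.605, 0.510 to 0.718; Fisher's exact test, adjusted p = 1.07e-07). With both 3p arms summed, the arms of mir-181a were thus less unequal in lactation. Of 62 pairs of arms with at least 10 reads of each arm in each library, 13 had a smaller odds ratio than mir-181a-5p with CN-446-3p, whose main sequence odds ratio was 0.624 (0.429 to 0.910).

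The split of the mir-181a 3p reads between the chromosomes showed no detectable difference. CN-446-3p, the chromosome 11 arm, made up 61.4% of the isomiR reads of both 3p arms in lactation (55.1 to 67.5) and 59.5% in non-lactation (53.8 to 65.1). On the main sequence it made up 68.8% (57.3 to 78.9) and 61.1% (51.4 to 70.1), and the odds ratio of the 3p arms was 1.41 (0.732 to 2.74; Fisher's exact test, adjusted p = 0.363). 3p reads of both hairpins were therefore present in both libraries, with the larger number from chromosome 11.

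CN-402-3p, of the chromosome 16 hairpin with mir-181b, was the only listed 3p arm whose interval lay above 1. It had 12 main sequence reads in lactation and 5 in non-lactation, a ratio of 3.20 (1.05 to 11.6), and 16 and 5 isomiR reads. Against its chromosome 16 neighbour CN-403-3p, the odds ratio of CN-403-3p over CN-402-3p was 0.232 (0.0568 to 0.809; Fisher's exact test, adjusted p = 0.0198). For mir-181b-5p, summed over its hairpins, against CN-402-3p, the odds ratio was 0.216 (0.0595 to 0.662) on the main sequence. On isomiRs it was 0.172 (0.0492 to 0.491). These values rest on very few reads of CN-402-3p.

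CN-88-3p, the other arm of mir-181c, had 3 main sequence reads in lactation and 11 in non-lactation. Its isomiR reads were 15 and 75, a ratio of 0.267 (0.142 to 0.469), whereas all isomiRs of mir-181c-5p had a ratio of 0.600. On isomiRs, mir-181c-5p had 15.3 reads for each CN-88-3p read in lactation and 6.79 in non-lactation (odds ratio 2.25, 1.25 to 4.31; Fisher's exact test, adjusted p = 0.0108). On the main sequence the odds ratio was 0.566 (0.138 to 3.34; Fisher's exact test, adjusted p = 0.488), with the opposite sign. The 3p arm of the mir-181c hairpin was thus lower in lactation on isomiRs, as were all isomiRs of mir-181c-5p and of mir-181d. On the main sequence of CN-88-3p, the interval of the ratio spanned 1 (0.0652 to 1.38). How isomiR reads were assigned between CN-88-3p and the similar CN-403-3p was not tested.

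**Figure D5:**
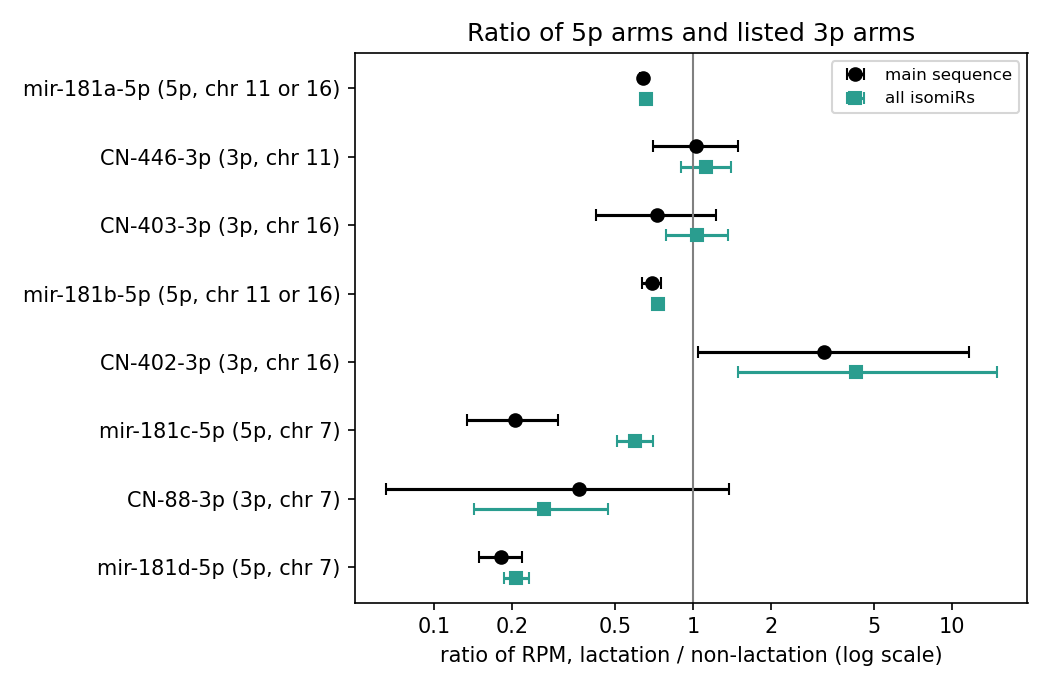
Ratio of RPM, lactation over non-lactation (log scale), of the 5p members and the 3p miRNAs of their hairpins, for the main sequence (black circles) and all isomiRs (green squares), with bars for 95% exact intervals. The vertical line marks equal levels. CN-446-3p and CN-403-3p have intervals that span 1, mir-181a-5p lies at 0.639 and 0.661, and mir-181d-5p lies at 0.181 and 0.208. The main sequence interval of CN-88-3p, from 0.0652 to 1.38, also spans 1.

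A further miRNA in the list of conserved candidates carried the mir-181 seed, which made 5 unique miRNAs with that seed. It was named PC-181b, for its likeness to mir-181b of the opossum and platypus. Its 26 nt sequence had 1 extra G after position 22 of mir-181b-5p and ended in a further A. It had 5 reads in lactation and 11 in non-lactation, a ratio of 0.607 (0.165 to 1.89). It added little to the reads of the seed.

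The known miRNAs whose pair of log2 ratios, on the main sequence and on all isomiRs, lay nearest to each member were sought among 138 candidates. These had at least 100 main sequence reads in each of the 2 libraries. The nearest to mir-181a were mir-192-5p and let-7c-5p, at log2 distances of 0.14 and 0.16. Nearest to mir-181b were mir-195-5p and mir-423-3p, both at 0.10. The nearest to mir-181d were mir-199a-3p, at 0.29 with ratios of 0.211 and 0.238, and mir-221-3p at 0.53. mir-181c had no close neighbour among these candidates, the nearest, mir-199c-3p, being at 0.82. With 30 main sequence reads in lactation, mir-181c was itself below their minimum, so miRNAs of like depth were not searched.

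The tissue of the libraries differed in more than the mir-181 family. By the study's histology, the non-lactating gland held more stroma and fat. Of 6 epithelial miRNAs (the mir-200 family and mir-205), 5 were called higher in lactation and mir-205-5p was called lower with a ratio of 0.266, and their summed level was 12385 RPM in lactation and 2596 RPM in non-lactation. Of 5 stromal and smooth muscle miRNAs with enough reads, 3 were called lower, mir-199a-3p with a ratio of 0.211, mir-199a-5p and mir-199b-5p. The others did not go with them: mir-143-3p was called higher at 2.35, mir-145-5p was at 1.17 and mir-214-3p, with few reads, at 1.73. The sum over all 6 was 8640 and 14558 RPM. Its fall rested on mir-199a-3p, which had 25123 reads in lactation and 159166 in non-lactation. Of 7 blood cell miRNAs with enough reads, 2 were called lower and 2 higher, their median log2 ratio was -0.95, and the sum over all 9 was 165 and 168 RPM. The 6 entries of that list known from leukocytes all had ratios under 1. Among them were mir-146a-5p at 0.437, mir-155-5p at 0.484, mir-142-3p at 0.517 and mir-150-5p at 0.921. mir-142-5p, with 423 reads in lactation and 1128 in non-lactation, was just short of 2-fold lower. mir-223-3p, at 0.478, had 24 reads in lactation and 67 in non-lactation, too few for a call. Of the 3 red cell entries, mir-451-5p was at 2.50 and mir-486-5p at 5.88, and mir-144-3p had 3 reads in lactation and was listed at 0 in non-lactation. This grouping of the list was made after its values were seen. Both endothelial entries, mir-126-5p and mir-126-3p, were called higher (487 and 165 RPM in sum), as were both striated muscle miRNAs with enough reads, with mir-133a-3p at 20.2 (4480 and 696 RPM in sum over 4). The part of these shifts in tissue content in the levels of the mir-181 members was not tested.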

How the data were processed

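Small RNA of 18 to 30 nt was sequenced by the authors on a Genome Analyzer. They removed adaptors, low-quality reads and reads matching mRNA, Rfam and Repbase, and mapped the rest to miRBase 17.0 and the BTA 4.0 genome with ACGT101-miR. The labels and the methods name different RNA extraction and library kits. The deposited values are read counts, given for the main sequence of a miRNA and for its isomiRs in sum, with the number of isomiR kinds. The candidate (CN) list was read in the column order that its values allow, and isomiR columns of the conserved list were not used.

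Reads were scaled to the clean reads of each library as stated by the study. Ratios had exact Clopper-Pearson intervals at 95%, conditional on the summed reads, and pairs of members or arms had conditional odds ratios with two-sided Fisher's exact tests. A call needed a 2-fold difference and 100 summed reads. The alternatives were all isomiRs, isomiRs without the main sequence, the listed sum, TMM factors (edgeR 4.0.16), DESeq2 1.42.0 size factors, no scaling, and other thresholds. Scripts ran in Python 3.11.15 with scipy 1.17.1 and were tested on simulated data. For each member the 2 miRNAs nearest in log2 ratios were named, from candidates with at least 100 main sequence reads in each library. RefSeq names were matched by symbol. Gene overlaps and neighbours are those of RefSeq on the later assembly, while the positions printed are those of the deposited data. The members and all miRNA lists were chosen with earlier results of these data known.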

Additional observations from a re-analysis of the deposited data

How the results depend on the processing

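No member changed direction under any scaling or read count tried. With TMM factors, DESeq2 size factors and no scaling, the ratio of mir-181a was 0.533, 0.525 and 0.479, and that of mir-181b 0.577, 0.569 and 0.519. Unscaled reads were the only setting that put mir-181a past 2-fold lower. mir-181a was at 0.657 with the sum of the listed reads, 0.661 on all isomiRs and 0.668 without the main sequence. mir-181d was at 0.149 with DESeq2 size factors, 0.136 with no scaling and 0.226 without the main sequence. mir-181c kept its call under all 4 scalings and lost it on all isomiRs (0.600) and without the main sequence (0.846). The median of the 273 miRNAs shifted on the log2 scale by 0.04 with the listed sum, -0.26 with TMM, -0.28 with DESeq2 size factors and -0.42 with no scaling.

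At 1.5-fold, mir-181a was called too, which made 3 of 4 members beside 83 of 273 miRNAs (30.4%). Of all miRNAs, 16 were called at 4-fold, 102 of 540 with a minimum of 10 reads and 33 of 124 with a minimum of 1000. The last left mir-181c out, and 1 member was called. On all isomiRs the odds ratio was 0.901 for mir-181a against mir-181b (now past the threshold), 1.10 for mir-181a against mir-181c (no longer past it) and 2.88 for mir-181c against mir-181d (now past it). With at least 1000 isomiR reads, 3 of 99 known miRNAs had odds of the main sequence at least 2-fold lower. mir-181c-5p against CN-88-3p reversed to 2.25 on isomiRs. Why these values moved was not tested. No paired analysis was possible because each condition had 1 library. Depth limits mir-181c in lactation (30 reads) and the 3p arms most.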
